A study of Mus musculus with 6 samples.

Results

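Enteroendocrine cells are the hormone-secreting cells of the gut epithelium. The cells described here carried transcripts of the granule proteins chromogranin A (Chga) and chromogranin B (Chgb). They held few transcripts of Tac1 or Tph1, which mark the serotonin-producing enterochromaffin class. Members were chosen by measured UMIs. A barcode was a member when it had at least 5 UMIs of Chga and Chgb together, these made at least 10 per 10000 of its UMIs, and Tac1 and Tph1 together had fewer than 5 UMIs (a UMI is 1 counted transcript molecule). The rule found 397 members among 29565 barcodes in 6 libraries. Another 368 barcodes passed the chromogranin part of the rule with 5 or more UMIs of Tac1 and Tph1, and these are called enterochromaffin-like.

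The series profiled single cells of mouse intestinal organoids (small cultured epithelia that a single cell can found) from wild-type C57BL/6 mice aged 8 weeks. Day-4 organoids (96 hours) came as 1 library each of an RXR antagonist group (5 µM), an all-trans retinoic acid group (10 µM), a vitamin A-free medium group and a DMSO vehicle group. Day-1 organoids (24 hours) came as 2 vehicle libraries. RXR, the retinoid X receptor, is a nuclear receptor, and retinoic acid is made from vitamin A in the body. The dose unit is written "μm" in the labels and is read here as micromolar. The labels say that organoids came from 2 mice in duplicate but do not tie a library to a mouse, so p-values measure the spread between these libraries, which may be technical. Until day 3 the medium held ENR factors, Wnt3a, a ROCK inhibitor and CHIR99021, and afterwards ENR factors alone. Day of culture and medium therefore cannot be told apart. Dead cells and debris had been gated out by flow sorting.

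Enteroendocrine cells arise in the crypt when the transcription factor Neurog3 is switched on briefly. They then leave the cell cycle, take up granule proteins and prohormone-processing enzymes, and make one or several peptide hormones. Cholecystokinin (Cck), proglucagon (Gcg, the source of GLP-1), secretin (Sct), GIP (Gip), ghrelin (Ghrl), peptide YY (Pyy), neurotensin (Nts) and somatostatin (Sst) are the main gut hormones outside the enterochromaffin class. Fewer cells of a hormone class and less hormone RNA per cell cannot be told apart in values summed over members.

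Chga and Chgb chose the members, so their levels are a description. The median member had 43 UMIs of Chga and Chgb in the RXR antagonist library, 23 in the retinoic acid library, 30.5 in the vitamin A-free library and 34 in the day-4 vehicle library, against 36 and 45 in day-1 libraries 1 and 2. Few members lay near the limits of the rule. Over the 6 libraries, members with 5 or 6 UMIs of Chga and Chgb numbered 2, 4, 0, 0, 1 and 2 in that order, and barcodes kept out with 4 numbered 0, 0, 0, 0, 2 and 3. Members with 4 UMIs of Tac1 and Tph1 numbered 0, 0, 1, 0, 6 and 3, and barcodes kept out with 5 numbered 1, 1, 1, 1, 1 and 4.

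The label held against genes the rule did not read. The genes with the highest ratios in members over all other barcodes of the same library, in the same direction in every library, were Ghrl, Cck, Gcg, Sct, the prohormone-trimming enzyme Cpe (carboxypeptidase E), the calcium sensor Scgn (secretagogin), Ceacam10, the granule protein Scg2 (secretogranin 2), Nefm, the transcription factor Neurod1, Hmgn3, Aplp1, Isl1, Rbp4 and the calcium channel subunit Cacna1a. Neurod1 averaged 394.6 CPM (counts per 1000000 UMIs of the summed members) in members and 1.75 CPM in the other barcodes. Cpe averaged 994.1 CPM and 4.06 CPM in the same order. These ratios describe how the members were found and were not tested. Markers of immune and stromal cells were nearly absent: 15 genes summed to 0 to 24.9 CPM in members over the 6 libraries. Epithelial markers of other classes were present and are given beside the results they move with.

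Members were shallower than the rest of the cells. Their median depth was 6972, 4426, 5202 and 5495 UMIs in the RXR antagonist, retinoic acid, vitamin A-free and vehicle libraries of day 4, against 3359 and 4509 UMIs at day 1. The barcodes in neither endocrine class had medians between 10042 and 13494 UMIs. Summed over members, the libraries held 80224 to 225077 UMIs at day 4 and 322668 and 1136650 UMIs at day 1. Doublet removal took 0, 0, 7 and 3 of the day-4 members and 6 and 16 of the day-1 members. Pairs of libraries shared 2 to 17 barcodes, none of them a member in both. The day-1 members differed in summed level by a median absolute log2 of 0.25 between the 2 libraries over 7047 genes, and 1.93% of these genes differed by over 2-fold.

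Members were a smaller share of the cells at day 4. They were 19 of 3570 barcodes with the RXR antagonist (0.532%, exact 95% interval 0.321 to 0.830), 15 of 5365 with retinoic acid (0.280%, 0.157 to 0.461), 40 of 4963 in vitamin A-free medium (0.806%, 0.576 to 1.10) and 27 of 4787 with vehicle (0.564%, 0.372 to 0.820). At day 1 they were 81 of 5576 (1.45%, 1.16 to 1.80) and 215 of 5304 (4.05%, 3.54 to 4.62). Every day-4 share lay below both day-1 shares, and the day-1 libraries themselves differed beyond counting error. The mean was 0.545% ± 0.215 (SD, n = 4) at day 4 and 2.75% ± 1.84 (SD, n = 2) at day 1. The difference of -2.21 points had an exact two-sided permutation p of 0.133, the smallest that 15 regroupings of the libraries allow. With cells thinned to 5000 UMIs the shares were 0.479%, 0.118%, 0.587% and 0.385% at day 4 and 0.296% and 1.87% at day 1, so the days overlapped (exact permutation p = 0.533). Thinning left out 4, 9, 16 and 11 day-4 members and 69 and 132 day-1 members as too shallow. Without day-1 library 2 the difference was -0.91 points, and without day-1 library 1 it was -3.51 points.

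Among all chromogranin-positive barcodes, members and enterochromaffin-like cells had near-equal shares in the counts as deposited. Members were 47.5%, 60.0%, 51.9% and 52.9% of them in the RXR antagonist, retinoic acid, vitamin A-free and vehicle libraries of day 4, and 49.4% and 52.7% at day 1. The enterochromaffin-like class counted 21, 10, 37 and 24 cells at day 4 and 83 and 193 cells at day 1. With cells thinned to 5000 UMIs, members were 51.6%, 66.7%, 59.6% and 48.6% at day 4 and 65.2% and 79.3% at day 1, and the difference of the day means turned to -15.6 points, against 2.05 points without thinning (exact permutation p = 0.267 with thinning). Thinning left out 5, 7, 16 and 5 enterochromaffin-like cells at day 4 and 72 and 167 at day 1 as too shallow. After it, 8 and 23 such cells were counted at day 1 beside 15 and 88 members. The thinned shares thus rest on a different set of cells.

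**Figure D1:**
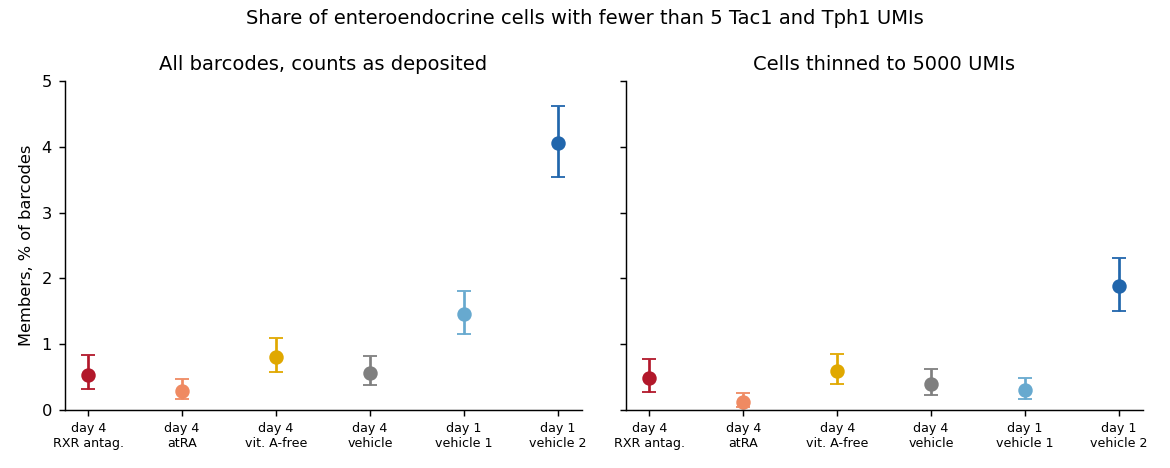
Members as a percentage of all barcodes in each library, with the exact 95% binomial interval, for the counts as deposited (left) and after thinning cells to 5000 UMIs (right). The 4 day-4 libraries lie between 0.280% and 0.806%, below the day-1 libraries at 1.45% and 4.05%. After thinning, day-1 library 1 at 0.296% falls among the day-4 libraries.

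Hormone transcripts filled less of the members' RNA at day 4. The 29 hormone genes found in the files, of 31 listed, took 7.81% of the members' UMIs with the RXR antagonist, 1.28% with retinoic acid, 2.75% in vitamin A-free medium and 3.90% with vehicle. They took 16.7% and 14.2% in day-1 libraries 1 and 2. Of these genes, 11 reached 20 UMIs in at least 1 library. A member is called positive for a hormone here when it had 5 or more UMIs of it. Cells in neither endocrine class were positive in at most 0.287% of cases for any of these 11 hormones in any library, although up to 17.0% of them had at least 1 UMI of Cck. Adm (adrenomedullin), which had at most 2 UMIs in the members of any library, was positive in 1.42% of such cells with the RXR antagonist.

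Cck, the hormone that releases bile and pancreatic enzymes after a fatty meal, was with secretin among the most common hormones at day 1 and was found in fewer members at day 4. It was present in 6 of 19 members (31.6%), 4 of 15 (26.7%), 10 of 40 and 7 of 27 (25.9%) in the RXR antagonist, retinoic acid, vitamin A-free and vehicle libraries, against 66 of 81 (81.5%) and 148 of 215 (68.8%) at day 1. The exact 95% intervals at day 1 began at 71.3% and 62.2%. The 4 day-4 shares stood close together and far below both day-1 shares. The day-4 mean was 27.3% ± 2.94 (SD, n = 4) and the day-1 mean 75.2% ± 8.94 (SD, n = 2), a difference of -47.9 points (exact two-sided permutation p = 0.133, the smallest possible). In members thinned to 5000 UMIs the means were 26.0% and 85.1%. The summed level was 41887, 5310, 11641 and 14148 CPM at day 4 and 102852 and 88732 CPM at day 1. The member with the most Cck held 50.9%, 43.4%, 45.9% and 76.3% of the level in the 4 day-4 libraries, but 5.76% and 2.25% at day 1.

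Gcg and Sct were likewise found in fewer members at day 4. Gcg, the precursor of GLP-1, was present in 3, 1, 2 and 2 members in the same day-4 order (15.8%, 6.67%, 5.00% and 7.41%), against 48 and 95 members at day 1 (59.3% and 44.2%). Secretin was present in 5, 2, 8 and 7 members at day 4 (26.3%, 13.3%, 20.0% and 25.9%), against 61 and 150 at day 1 (75.3% and 69.8%). The days did not overlap for either hormone. The mean shares were 8.72% ± 4.82 and 51.7% ± 10.7 for Gcg, and 21.4% ± 6.10 and 72.5% ± 3.92 for Sct, day 4 first (SD, n = 4 and n = 2; exact permutation p = 0.133 for each, the smallest possible). Summed over members, Gcg stood at 12870, 598, 1017 and 162 CPM at day 4 and 32950 and 26722 CPM at day 1. Sct stood at 4986, 449, 1835 and 1770 CPM at day 4 and 4137 and 4841 CPM at day 1, and the RXR antagonist value was above both day-1 values. Without the member richest in Sct in each library, the day-4 level lay further below day 1. The day-4 Sct sums thus leaned on single members. Gip, the hormone of K cells, was rarer on both days, in 1, 0, 0 and 1 members at day 4 and in 11 and 26 at day 1 (13.6% and 12.1%). The 0 of 15 and 0 of 40 members allow shares of up to 20.0% and 7.50%, which reach the day-1 level in the retinoic acid library.

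Ghrl was the exception among the common hormones. Ghrelin-positive members numbered 12 of 19, 5 of 15, 17 of 40 and 13 of 27 at day 4 (63.2%, 33.3%, 42.5% and 48.1%), against 42 of 81 and 109 of 215 at day 1 (51.9% and 50.7%). The day-1 shares lay inside the day-4 range. Its mean was 46.8% ± 12.5 at day 4 and 51.3% ± 0.816 at day 1 (SD, n = 4 and n = 2; exact permutation p = 0.667). The summed level was 14931, 5896, 10961 and 14774 CPM at day 4 and 12130 and 9209 CPM at day 1. In members thinned to 5000 UMIs the sign of the difference turned, with means of 56.8% at day 4 and 34.8% at day 1 (exact permutation p = 0.4). Shares were compared in this way for 11 hormones, and as the design allows no p below 0.133, none could pass a threshold of 0.05.

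The remaining hormones were sparse. Pyy, the L-cell hormone of the lower gut, was present in 5, 1, 0 and 1 members at day 4 and in 16 and 37 at day 1 (19.8% and 17.2%), and the RXR antagonist share of 26.3% was above both day-1 shares. Neurotensin-positive members numbered 1, 0, 0 and 0 at day 4 and 1 and 10 at day 1. Somatostatin-positive members numbered 0, 0, 1 and 0 at day 4 and 1 and 4 at day 1. Iapp (amylin) was found in 2, 0, 5 and 2 members at day 4 (10.53%, 0%, 12.5% and 7.41%) and in 1 and 3 at day 1 (1.23% and 1.40%), so 3 of the 4 day-4 shares lay above both day-1 shares (exact permutation p = 0.4).

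**Figure D2:**
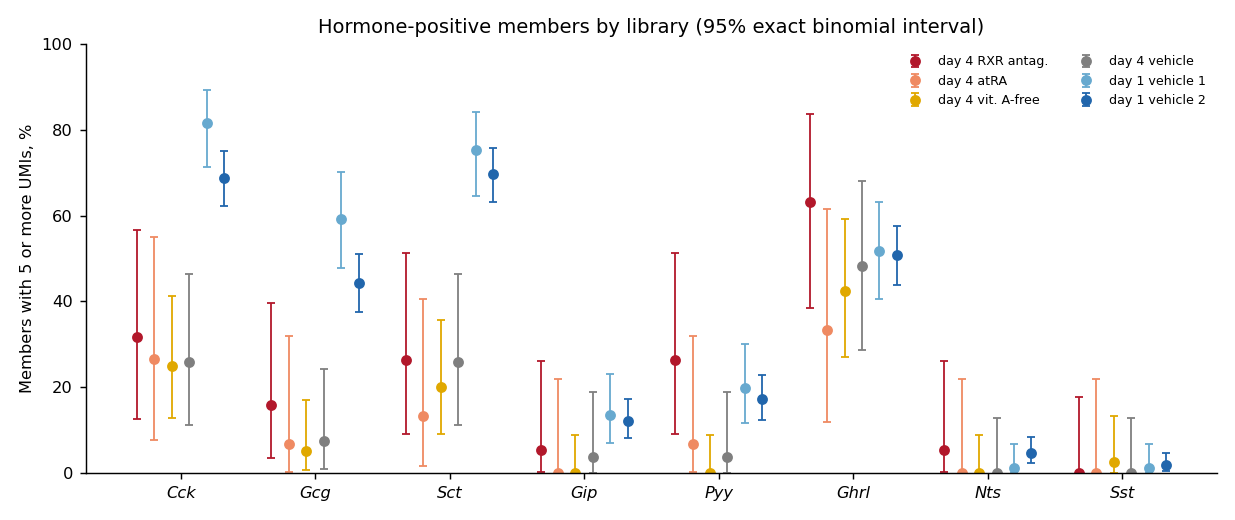
Percentage of members with 5 or more UMIs of each of 8 hormones in each library, with the exact 95% binomial interval. For Cck, Gcg and Sct all 4 day-4 points lie below both day-1 points, while for Ghrl the day-1 points, 51.9% and 50.7%, lie within the day-4 range of 33.3% to 63.2%.

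Most day-1 members made several hormones at once. Members positive for 4 or more hormones numbered 4, 0, 3 and 1 in the RXR antagonist, retinoic acid, vitamin A-free and vehicle libraries, against 35 (43.2%) and 88 (40.9%) in the day-1 libraries. Members positive for none numbered 6, 8, 16 and 8 at day 4 (31.6%, 53.3%, 40.0% and 29.6%) and 9 and 32 at day 1 (11.1% and 14.9%). Gcg occurred inside the Cck class: all 3, 1, 2 and 2 Gcg-positive members at day 4 and all 48 and 95 at day 1 were also Cck-positive. At day 1 all 16 and 37 Pyy-positive members and 38 of 42 and 86 of 109 Ghrl-positive members were Cck-positive. Cck was common among all day-1 members, at 81.5% and 68.8%. Of day-1 members without Ghrl 71.8% and 58.5% were Cck-positive, and of those without Gcg 54.5% and 44.2%. Of members without Pyy in day-1 library 1, 76.9% were. Part of the overlap thus comes with how common Cck was. By the hormone with the most UMIs, Cck led in 4, 4, 7 and 5 members at day 4 and in 51 and 117 at day 1. Ghrl led in 8, 3, 12 and 11 members at day 4 and in 7 and 27 at day 1. So Ghrl led more members than Cck in the RXR antagonist, vitamin A-free and vehicle libraries of day 4, and Cck led in the retinoic acid library and in both day-1 libraries.

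**Figure D3:**
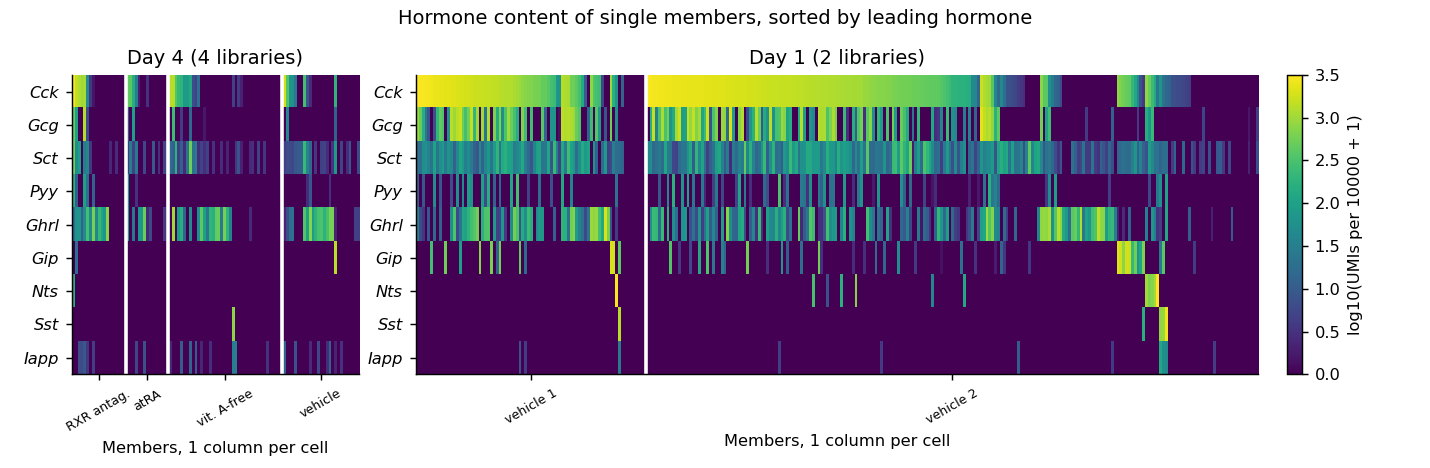
Hormone content of each member, 1 column per cell, as log10 of UMIs per 10000 plus 1, sorted within each library by the leading hormone among those shown (day 4 left, day 1 right). In the day-1 libraries Cck led 51 and 117 members and Gcg, Sct and Pyy fill the same columns, while at day 4 Cck led 4 to 7 members a library.

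At day 1 the Ghrl-led members differed from the Cck-led ones in more than their hormone. The classes were cut by hormone UMIs and few cells fill the first, so the values are a description. The transcription factor Isl1 had 1107 and 1080 CPM in Ghrl-led members and 176 and 209 CPM in Cck-led members of day-1 libraries 1 and 2. The cell cycle inhibitor Cdkn1a (p21) had 3211 and 3627 CPM in Ghrl-led members against 436 and 387 CPM. Chgb had 1107 and 1337 CPM in Ghrl-led members against 10628 and 11193 CPM, and Chga had 4318 and 4761 CPM against 1177 and 1389 CPM. The rule chose members by the sum of Chga and Chgb, so a member under the limit in either needed the other to pass. Their levels are not counted as a further difference between the classes. Day-1 members with no hormone had Neurog3 at 157 and 621 CPM, against 9.2 and 8.2 CPM in Cck-led members, and Scg2 at 26.1 and 0 CPM, against 2030 and 1888 CPM.

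The sequences just upstream of the 4 hormone genes are shown because the positive shares of Cck, Gcg and Sct differed by day. The Ghrl share did not move with them. Neurod1 and Neurog3 belong to a family that binds the E-box CANNTG, which reads the same on both strands. The 200 bases before the most upstream RefSeq start (GRCm38.p6, minus strand of the chromosome in each case, printed in the direction of transcription, E-boxes in capitals) were as follows.
Cck, chr9:121495695-121495894: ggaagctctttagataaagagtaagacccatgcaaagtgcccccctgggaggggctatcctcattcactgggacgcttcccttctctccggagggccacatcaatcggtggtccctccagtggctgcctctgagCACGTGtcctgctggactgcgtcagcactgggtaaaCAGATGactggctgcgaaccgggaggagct
Gcg, chr2:62483654-62483853: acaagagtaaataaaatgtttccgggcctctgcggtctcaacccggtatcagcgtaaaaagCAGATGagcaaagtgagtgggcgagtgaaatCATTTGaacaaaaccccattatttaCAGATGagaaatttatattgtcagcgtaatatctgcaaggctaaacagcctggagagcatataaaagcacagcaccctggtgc
Sct, chr7:141279134-141279333: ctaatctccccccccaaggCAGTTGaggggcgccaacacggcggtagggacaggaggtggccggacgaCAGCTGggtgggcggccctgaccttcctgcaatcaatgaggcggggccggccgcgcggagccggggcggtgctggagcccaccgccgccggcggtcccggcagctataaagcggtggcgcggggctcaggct
Ghrl, chr6:113719912-113720111: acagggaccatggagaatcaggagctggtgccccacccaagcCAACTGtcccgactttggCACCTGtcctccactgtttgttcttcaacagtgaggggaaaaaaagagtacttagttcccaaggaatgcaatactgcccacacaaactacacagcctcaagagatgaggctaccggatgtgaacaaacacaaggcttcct
CANNTG occurred 2 times before Cck, 3 times before Gcg, 2 times before Sct and 2 times before Ghrl, and 57.94% of 27025 genes had at least 1 in such a window. The form CAGATG, read on either strand and contained in CANNTG, occurred once before Cck and 2 times before Gcg, and 11.67% of the genes had it. A match describes letters in this window and not a bound site.

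Genes were compared by day in 2 ways, both with edgeR's quasi-likelihood test on UMIs summed over members and Benjamini-Hochberg adjustment at 0.05. The day-4 vehicle against the day-1 vehicle holds treatment constant but rests on 27 day-4 cells and on a spread taken from the 2 day-1 libraries. Of 6250 genes it called 228 higher (3.65%) and 525 lower (8.40%), and its results are given as calls only. Scaled to total UMIs instead of TMM, the split was 453 higher and 252 lower, and the median of all genes stood at 0.21 instead of -0.14 (log2). The 4 day-4 libraries against the 2 day-1 libraries put the differences between treatments into the error. They called 233 of 4520 genes (5.15%), 61 higher (1.35%) and 172 lower (3.81%), or 164 higher and 82 lower on the total-UMI scale, with medians of -0.10 and 0.21. All p-values below are adjusted ones from this second fit. They depended on both day-1 libraries: of 40 genes named from it, 2 of 39 tested passed without day-1 library 1 and 3 of 39 without library 2, 17 of 37 passed without the vitamin A-free library and 19 of 39 without the day-4 vehicle library. All 40 passed without the RXR antagonist library and all 40 without the retinoic acid library.

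The hormone and granule genes that passed the 4-library test were lower at day 4. Cck fell (log2 -2.63, adjusted p = 0.0378) and was the sole hormone called of 9 measured in the 4-library fit, with a list median of -2.22. Against the day-4 vehicle alone, 6 of 11 hormones were lower (Gcg, Cck, Sst, Nts, Sct and Pyy) and none was higher. Nts and Sst had 0 UMIs in that library, which allows up to 20.2 CPM. Among 18 genes of granules and prohormone processing, 2 fell in the 4-library fit. They were Cpe, with 959, 536, 684 and 882 CPM at day 4 and 1441 and 1462 CPM at day 1 (log2 -1.20, adjusted p = 0.0341), and Pam, the enzyme that amidates Cck and secretin, with 351, 224, 271 and 451 CPM at day 4 and 592 and 554 CPM at day 1 (log2 -1.09, adjusted p = 0.0443). Scg2 had 919, 175, 440 and 660 CPM at day 4 and 1689 and 1452 CPM at day 1 (log2 -1.76, adjusted p = 0.0535). Against the day-4 vehicle alone 4 of 21 granule genes were lower (Scg2, Scg3, Cpe and Pam) and 1 higher, the small GTPase Rab3c. Of 15 genes of exocytosis and excitability none passed in the 4-library fit. Neither Cpe nor Pam passed without the vitamin A-free library, the day-4 vehicle library or either day-1 library, and Cck did not pass without either day-1 library.

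The nutrient sensors Ffar1 and Slc5a1 were lower at day 4. Ffar1 (GPR40), a receptor for long-chain fatty acids on Cck and Gcg cells, had 6.76, 49.9, 4.44 and 33.7 CPM at day 4 and 102 and 109 CPM at day 1 (log2 -2.77, adjusted p = 0.0143). Slc5a1 (SGLT1), the glucose transporter through which these cells sense sugar, had 94.6, 99.7, 62.2 and 74.0 CPM at day 4 and 170 and 172 CPM at day 1 (log2 -1.39, adjusted p = 0.0139). They were 2 of the 3 receptors and transporters measured. None of the 3 passed without the vitamin A-free library or without either day-1 library.

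The early endocrine genes Neurog3, Neurod2 and Rcor2 were higher at day 4, and Etv1 was lower. Neurog3, which commits crypt cells to the endocrine fate, had 216, 910, 560 and 612 CPM in the RXR antagonist, retinoic acid, vitamin A-free and vehicle libraries, against 24.8 and 109 CPM at day 1 (log2 2.60, adjusted p = 0.0264). It was seen in 6 of 19, 10 of 15, 18 of 40 and 16 of 27 members at day 4 and in 2 of 81 and 30 of 215 at day 1. Between 0.312% and 1.16% of cells in neither class had a UMI of it. Neurod2 had 60.8, 74.8, 120 and 121 CPM at day 4 and 12.4 and 22.0 CPM at day 1 (log2 2.05, adjusted p = 0.0199). Rcor2, a corepressor partner on the progenitor list, had 40.5, 162, 200 and 168 CPM at day 4 and 15.5 and 27.3 CPM at day 1 (log2 2.30, adjusted p = 0.0252). Etv1, an ETS-family factor, went the other way with 94.6, 137, 173 and 162 CPM at day 4 and 403 and 351 CPM at day 1 (log2 -1.68, adjusted p = 0.00499).

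As lists, 13 of 15 early progenitor genes were higher with the day-4 vehicle and none lower, with a median of 1.27. With all 4 day-4 libraries 2 of 13 were higher (Neurog3 and Rcor2), with a median of 1.07. Without the RXR antagonist library 13 of 14 were called higher, where 229 of 4992 genes were higher (4.59%) and 496 lower (9.94%). That library had the lowest day-4 value of several of these genes: Sox4 had 203 CPM in it and 1471, 1026 and 1178 CPM in the other day-4 libraries, against 301 and 517 CPM at day 1. Gadd45a, a growth arrest gene, had 94.6 CPM with the antagonist and 436, 653 and 801 CPM in the others, against 136 and 127 CPM at day 1. Of the 35 enteroendocrine transcription factors measured with the day-4 vehicle, 13 were higher and 1 lower, and of the 32 measured with all 4 libraries, 2 were higher and 1 lower. Without the vitamin A-free library, the day-4 vehicle library or either day-1 library, no early progenitor gene was called, and the list median stayed between 0.81 and 1.34.

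The cell division genes Birc5, Ube2c and Top2a were lower at day 4. Birc5 (survivin) had 6.76, 37.4, 13.3 and 6.73 CPM at day 4 and 161 and 95.02 CPM at day 1 (log2 -3.42, adjusted p = 0.00471). Ube2c, which tags mitotic cyclins for destruction, had 27.0, 49.9, 57.8 and 20.2 CPM at day 4 and 177 and 136 CPM at day 1 (log2 -2.22, adjusted p = 0.00579). Top2a (topoisomerase 2 alpha) had 0, 0, 22.2 and 6.73 CPM at day 4 and 102 and 93.3 CPM at day 1 (adjusted p = 0.00803). They were the 3 called of 5 mitosis genes measured. A minority of members carried them: Top2a was seen in 12 of 81 and 30 of 215 day-1 members, against 80.3% and 69.3% of day-1 cells in neither class. With doublets removed, 2 mitosis genes could be measured and none was called, and none was called without either day-1 library. The part of mixed droplets in this difference was not tested.

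Genes shared with absorptive enterocytes were lower in members at day 4 where they passed the test. Sis (sucrase-isomaltase) had 128, 511, 626 and 646 CPM in members at day 4 and 1364 and 1619 CPM at day 1 (log2 -1.95, adjusted p = 0.0314). Of 16 enterocyte genes 6 were lower and none higher, with a median of -1.31, and 13 of 20 were lower with the day-4 vehicle alone. Apob, the structural protein of chylomicrons, and Prap1 were among them (log2 -2.24 and -2.25, adjusted p = 0.0225 and 0.00426). Without the vitamin A-free or the day-4 vehicle library 3 enterocyte genes were called, and without either day-1 library 1 was called.

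Further genes at the low end included enzymes of small-molecule metabolism. Adh1 (alcohol dehydrogenase 1, which also oxidises retinol) had 20.3, 74.8, 31.1 and 40.4 CPM at day 4 and 316 and 275 CPM at day 1 (log2 -3.26, adjusted p = 0.00103). Ttr (transthyretin, a carrier of thyroxine and retinol-binding protein) had 60.8, 337, 218 and 189 CPM at day 4 and 871 and 1143 CPM at day 1 (log2 -2.69, adjusted p = 0.00471). They were the 2 called of 8 genes on the retinoid list. Hdc, which makes histamine from histidine, had 0, 0, 13.3 and 20.2 CPM at day 4 and 105 and 120 CPM at day 1 (adjusted p = 0.00471). The cytochrome P450 gene Cyp2c55 had 20.3, 0, 22.2 and 6.73 CPM at day 4 and 211 and 257 CPM at day 1 (adjusted p = 0.00103). UMIs of close Cyp2c paralogs may be assigned uncertainly between genes.

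The genes of glycolysis and hypoxia that passed the test were higher at day 4. Slc16a3 (MCT4), which exports lactate, had 122, 49.9, 267 and 269 CPM at day 4 and 6.20 and 7.04 CPM at day 1 (log2 4.47, adjusted p = 0.00471). Bnip3, a mitophagy gene induced under low oxygen, had 304, 87.3, 453 and 512 CPM at day 4 and 37.2 and 33.4 CPM at day 1 (log2 3.06, adjusted p = 0.0145). Slc2a1 (GLUT1) had 142, 12.5, 93.3 and 121 CPM at day 4 and 12.4 and 16.7 CPM at day 1 (log2 2.39, adjusted p = 0.0341), and its retinoic acid value overlapped day 1. In total 7 of 21 genes on the list were higher and none lower, with a median of 1.59. With the day-4 vehicle alone 16 of 20 were higher. In the other cells Slc16a3 had 210, 43.6, 160 and 156 CPM at day 4 and 4.09 and 5.64 CPM at day 1. Without the vitamin A-free or the day-4 vehicle library 1 gene of the list was called, and without either day-1 library none was, with medians from 1.47 to 1.68 in these 4 cases.

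The genes of cholesterol synthesis that passed the test were higher at day 4. Hmgcs1, an early enzyme of the pathway, had 547, 573, 675 and 727 CPM at day 4 and 105 and 108 CPM at day 1 (log2 2.27, adjusted p = 0.00132). Lss, which closes the sterol rings, had 128, 12.5, 66.6 and 94.2 CPM at day 4 and 6.20 and 5.28 CPM at day 1 (log2 3.52, adjusted p = 0.0207). Idi1 and the sterol sensor Insig1 were higher as well (log2 2.27 and 2.42, adjusted p = 0.0143 and 0.0101). Of 22 genes 12 were higher and none lower, with a median of 1.49, and 14 of 22 were higher with the day-4 vehicle. The day change of this list in members was not called different from that in other cells for any of the 22 genes, a p that misses the threshold being no proof that they moved alike. Without the vitamin A-free library 3 of 20 genes were called, without the day-4 vehicle library 4 of 22, and without either day-1 library none.

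Some secretory genes of goblet and Paneth cells were higher in day-4 members. Fcgbp, a goblet cell mucus protein, had 878, 1246, 911 and 1164 CPM at day 4 and 109 and 160 CPM at day 1 (log2 2.63, adjusted p = 0.00132). Tff3 and Spink4 rose with it (log2 1.07 and 1.52, adjusted p = 0.0334 and 0.0454), so that 3 of 5 goblet genes were called higher. Agr2, another gene of the goblet list, went the other way with the day-4 vehicle alone and was not called in the 4-library fit. Of 6 Paneth genes 1 was called, Itln1 (intelectin 1), with 980, 1384, 1742 and 2181 CPM at day 4 and 229 and 256 CPM at day 1 (log2 2.39, adjusted p = 0.00471). Lyz1 (lysozyme) had 27.0, 2082, 2168 and 2100 CPM at day 4 and 310 and 438 CPM at day 1 (adjusted p = 0.332), and Defa24 had 60.8, 1932, 2168 and 3783 CPM at day 4 and 186 and 243 CPM at day 1 (adjusted p = 0.121). The RXR antagonist library thus stood below day 1 for both. The 13 Paneth markers summed to 1426, 5884, 6540 and 8548 CPM in members at day 4 and to 824 and 1117 CPM at day 1, and in other cells to 1498, 1242, 2355 and 1429 CPM at day 4 and 516 and 1449 CPM at day 1. In 3 of the 4 day-4 libraries the members thus held more of it than the other cells. The goblet list summed to 5006, 5485, 4852 and 6704 CPM in day-4 members and 2324 and 2438 CPM in day-1 members. With doublets removed 1 of 5 goblet genes was called. The part of free RNA or of mixed droplets in these levels was not tested.

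The remaining lists gave few calls in the 4-library fit. Of 15 immediate early genes 1 was higher, Jun, with 953, 586, 1440 and 1064 CPM at day 4 and 158 and 149 CPM at day 1 (log2 2.45, adjusted p = 0.00681). Of 10 regenerative or fetal-like genes 1 was higher, the keratin Krt7 (log2 0.93, adjusted p = 0.0479). None of 6 stem cell genes, 4 DNA replication genes or 15 genes of the unfolded protein and stress response was called. Without the RXR antagonist library 7 of 9 regenerative genes were called lower and 1 higher, against 9.94% of all genes lower and 4.59% higher in that fit.

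**Figure D4:**
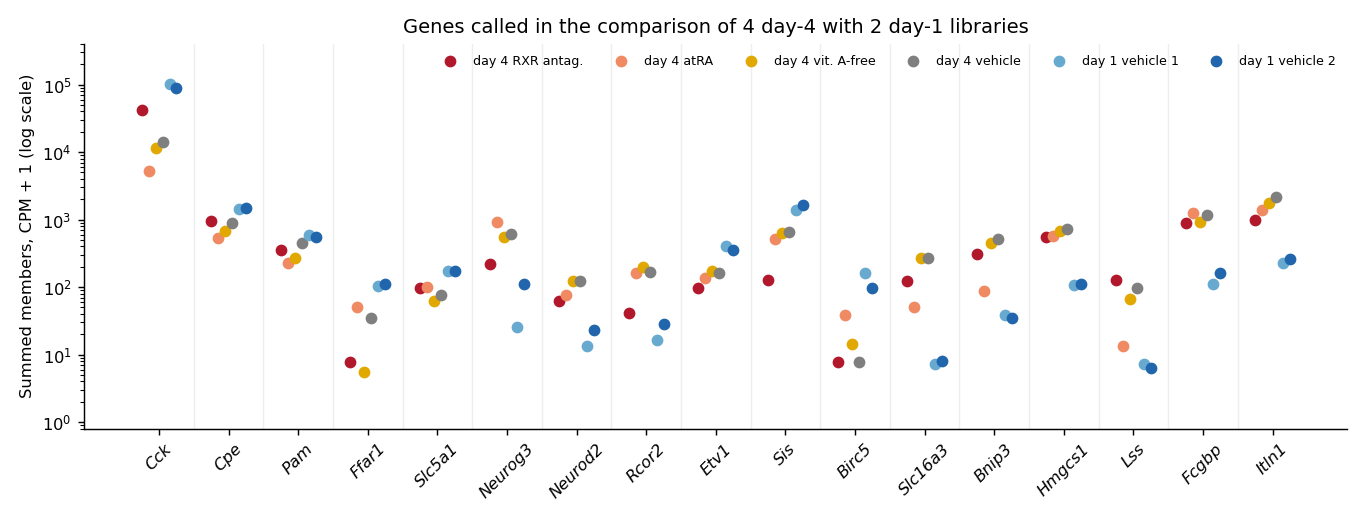
Level of 17 genes called between the 4 day-4 libraries and the 2 day-1 libraries, as CPM of the summed members plus 1 on a log axis, 1 point per library (day 4 left, day 1 right within each gene). Passing the test favours genes with a small day-1 spread. Most day-1 pairs shown stand close together, as for Hmgcs1 at 105 and 108 CPM. For some genes the day-4 points spread with treatment, as for Lss between 12.5 and 128 CPM.

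Whether members changed differently from the other cells of their libraries was tested as an interaction between the day-4 and day-1 vehicle libraries. It called 1007 of 16579 genes (6.07%), 181 with a higher day change in members (1.09%) and 826 with a lower one (4.98%). On the total-UMI scale these were 635 and 423. Neurog3 changed by 2.52 log2 units more in members than in the other cells, and Fcgbp by 3.17 more. Cck, Sct and Gcg changed by -3.03, -1.76 and -7.08 relative to the other cells. Ghrl, Nts, Pyy and Iapp also had a lower day change in members than in the other cells, and Gip had a higher one. Ghrl was thus not set apart from Cck, Sct and Gcg by the direction of this difference. The other cells in this fit were all barcodes outside the members, enterochromaffin-like cells included. Their Ghrl level was low, at 12.8 CPM with the day-4 vehicle and 5.49 and 12.7 CPM at day 1. Over 30 enterocyte genes the median difference of the log2 day changes was -4.41, against -0.53 over all genes. In members these genes summed to 3305 CPM with the day-4 vehicle and to 11368 and 11634 CPM at day 1. In the other cells they summed to 53805 CPM with the day-4 vehicle and to 8712 and 14984 CPM at day 1. The difference therefore holds a rise in the other cells as well as a fall in members. The day-4 arm of this fit is 1 library with 27 members, whose spread is assumed equal to that of day 1, and the fit has 1 residual degree of freedom. Its results are therefore given without p-values.

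Treatments were compared with the day-4 vehicle by size, because each group is 1 library and 15 to 40 members. No test was made, and ratios carry counting intervals alone. The comparison took genes at 50 CPM and 20 UMIs or more in either library and counted those at least 2-fold apart on a scale of log2(CPM + 5).

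Of the 3 treatments, the RXR antagonist had the largest share of genes apart from the vehicle in members. Of 1799 genes 376 were at least 2-fold apart (20.9%), 176 higher (9.78%) and 200 lower (11.1%). With TMM factors 213 were higher and 142 lower, so the larger side depended on the scale. With no floor on level, 46.2% of genes were apart with the antagonist and 47.0% with retinoic acid. The rank of the antagonist thus depended on the floor. On the list of regenerative and fetal-like epithelium 11 of 14 genes were higher and none lower, with a median of 5.30. The list of 23 genes summed to 13917 CPM in members with the antagonist against 1871 CPM with vehicle, and in the other cells to 34792 against 4540 CPM, so it moved with the whole library, and the source of these UMIs in members was not tested. Areg, a growth factor of the EGF family, had 1743 CPM with the antagonist against 13.5 CPM with vehicle. Krt19 had 4851 against 283 CPM (ratio 17.2, exact Poisson 95% interval 12.6 to 24.0). Lgals3 (galectin 3) had 147 UMIs against 0, at least 49.2-fold higher against a floor of 3 UMIs in the vehicle library, and Sprr1a had 120 against 0, at least 40.2-fold higher. Hormones were mixed, with 5 of 8 higher: Gcg had 12870 against 162 CPM (ratio 79.7, 53.4 to 125) and Pyy 2108 against 47.1 CPM, but 1 member held 69.7% of the Gcg UMIs. Early progenitor genes were lower in 10 of 12 cases, with a median of -1.63, among them Neurog3 with 216 against 612 CPM (ratio 0.353, 0.228 to 0.533) and Sox4 with 203 against 1178 CPM (ratio 0.172, 0.113 to 0.255). Lyz1 and Defa24 had 27.0 and 60.8 CPM with the antagonist against 2100 and 3783 CPM with vehicle.

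Members treated with retinoic acid had lower glycolysis genes and mixed hormones. Of 1553 genes 248 were at least 2-fold apart (16.0%), 74 higher (4.76%) and 174 lower (11.2%). On the glycolysis and hypoxia list 13 of 15 were lower and none higher, with a median of -1.59. Ldha (lactate dehydrogenase A) had 623 CPM with retinoic acid against 2430 CPM with vehicle (ratio 0.257, 0.187 to 0.346), and Bnip3 87.3 against 512 CPM (ratio 0.171, 0.0663 to 0.369). Cck had 5310 against 14148 CPM and Ghrl 5896 against 14774 CPM, a ratio of 0.399 (0.361 to 0.441). Of 7 hormones 5 were lower and 2 higher, Gcg with 598 against 162 CPM (ratio 3.70, 2.22 to 6.32) and Pyy with 399 against 47.1 CPM, each in 1 positive member of the retinoic acid library. Enterocyte genes of lipid and retinol handling were higher: Fabp2 had 1072 against 80.8 CPM (ratio 13.3, 7.22 to 26.7), Apoa1 449 against 47.1 CPM (ratio 9.52, 4.18 to 25.4), and Rbp2, which binds retinol in enterocytes, 873 against 101.0 CPM (ratio 8.64, 4.90 to 16.3). Their level in members moved with the whole library, in which the enterocyte list summed to 127580 CPM in the other cells with retinoic acid against 53805 CPM with vehicle, and their source was not tested. Neurog3 had 910 against 612 CPM (ratio 1.49, 1.08 to 2.04).

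Vitamin A-free medium had the smallest share of genes apart from the vehicle. Its library also held the most members and UMIs of the 3 treatments, with 40 members and 225077 UMIs. The RXR antagonist and retinoic acid libraries had 19 and 15 members with 148018 and 80224 UMIs. The part of counting noise in this order was not tested. Of 2460 genes 109 were at least 2-fold apart (4.43%), 81 higher (3.29%) and 28 lower (1.14%). None of 12 progenitor genes, 26 transcription factors, 17 glycolysis genes or 17 cholesterol genes was 2-fold apart. Cck had 11641 CPM against 14148 CPM with vehicle and Ghrl 10961 against 14774 CPM. Gcg was higher, with 1017 against 162 CPM (ratio 6.30, 4.13 to 10.03) in 2 positive members each, and Gip had 0 UMIs against 1158 in 1 vehicle member. Neurog3 had 560 against 612 CPM (ratio 0.914, 0.692 to 1.21). The fatty-acid binding protein Fabp5 was lower, with 462 against 1790 CPM (ratio 0.258, 0.204 to 0.325). Sst had 401 UMIs against 0, at least 88.2-fold higher, and 1 member was Sst-positive. Sox9, a crypt transcription factor, had 293 against 101.0 CPM (ratio 2.90, 1.64 to 5.48).

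**Figure D5:**
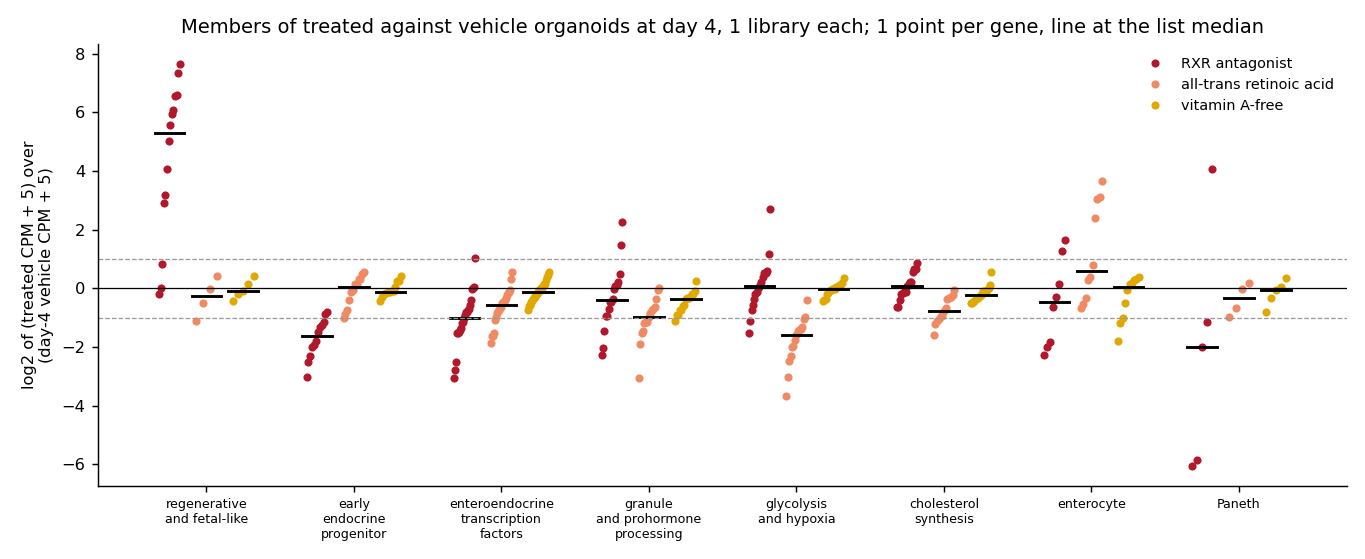
Log2 of (CPM + 5) in members of each treated library over that in the day-4 vehicle library, 1 point per gene for 8 gene lists, with a line at the list median and dashed lines at a 2-fold difference. The RXR antagonist points stand high for regenerative genes (median 5.30) and low for early progenitor genes (median -1.63), retinoic acid stands low for glycolysis and hypoxia (median -1.59), and vitamin A-free medium lies near 0.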

How the data were processed

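Counts of UMIs per gene and barcode were used as the authors deposited them, with no normalization, for 55335 genes in 6 libraries made by droplet capture with 3-prime chemistry, per the labels. Per the submitters' processing notes, Cell Ranger 3.1.0, bcl2fastq 2.17 and GRCm38 were involved, their order not being given. All deposited barcodes were kept, and doublets were removed as an alternative, by the highest Scrublet scores (scanpy 1.11.5) at 0.8% per 1000 barcodes (2.86% to 4.47% per library), because its own threshold marked 0 to 1.35%. The members, gene lists and tests were chosen with earlier results of these data known.

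UMIs of members were summed per library and tested by quasi-likelihood in edgeR 4.0.16 (R 4.3.3) after filterByExpr and with TMM scaling, p-values being adjusted over all genes by Benjamini-Hochberg. The fits were also run on simulated sums that had equal spread in every library and no treatment differences. That run says nothing about an unequal spread at day 4. CPM are scaled to total UMIs. Shares carry exact (Clopper-Pearson) and levels exact Poisson 95% intervals, which cover counting error only, and a count of 0 allows up to 3 UMIs or cells. Shares were compared by exact two-sided permutation over libraries (scipy 1.17.1). DESeq2 1.42.0, other scalings, filters and member rules were alternatives. Named genes were hormones with 20 or more UMIs in a library, up to 4 genes per list with the largest log2 ratios, the 12 highest and 12 lowest calls per day comparison, and the 10 highest and lowest per treatment. Not every gene that the rule names is reported here. Genes of lists named beyond this rule (Sox4, Krt19 and Ldha) and genes compared between day-1 hormone classes were chosen after their values were seen.

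The lists were gut hormones, granule and prohormone processing, exocytosis and excitability, nutrient and bile acid sensing, enteroendocrine transcription factors, early endocrine progenitor, crypt stem cell, DNA replication, mitosis, enterocyte, goblet, Paneth, tuft, regenerative and fetal-like, retinoid, stress and unfolded protein response, immediate early, glycolysis and hypoxia, cholesterol synthesis, and immune and stromal.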

Additional observations from a re-analysis of the deposited data

Results flagged for a closer look

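Over 14 measures screened among the 4 day-4 libraries, 2 had a library far from the other 3, and chance flags about 1 group in 20. The summed Gcg level was 12870 CPM in the RXR antagonist library, and its gap to the next library was 0.933 of the range, above the critical 0.829. The summed Gip level was 7794 CPM in the day-4 vehicle library (gap 0.992 of the range), and 1 member held 100% of these UMIs.

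The day change from the vehicle libraries was called different between members and all other barcodes for 5 genes screened by the interaction test of edgeR. The difference of the log2 changes was 2.52 for Neurog3, 3.17 for Fcgbp, -3.03 for Cck, -1.76 for Sct and -7.08 for Gcg. All passed the adjusted threshold of 0.05, but the day-4 arm is 1 library and the test has 1 residual degree of freedom, so the calls say little about other day-4 vehicle cultures. The high end of the Gip and Gcg ratios rests on the single cells named above.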

How the results depend on the processing

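No paired analysis was possible because the labels give any 2 groups at most 1 number in common. The cause of the differences below was not tested. The share of members and the positive shares of Cck, Gcg, Sct, Gip and Pyy kept their direction under every alternative run. The Ghrl share turned to 1.85 points higher at day 4 with 10 UMIs for a positive cell and to 21.9 points with thinning. The Ghrl level (log2 of day-4 over day-1 means) was 0.13, and -0.23 without doublets, -0.31 with equal weight per cell and -0.44 without the member richest in it in each library, an alternative chosen after seeing the data. Without that member the Sct level was -2.56. Gip then had no UMIs left at day 4, and its -10.17 is set by the 5 CPM added to each mean and is no measured fold. The Gip level was -8.84 without doublets and -7.61 with Tac1 and Tph1 at 0.

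Counts of calls depended on scale and tool. The day-4 vehicle comparison had 35 genes higher and 69 lower by DESeq2, 297 lower with DESeq2 size factors, and 453 higher and 252 lower on the total-UMI scale. The comparison of 4 with 2 libraries had 164 higher and 82 lower on the total-UMI scale, 61 lower by DESeq2, 209 higher and 373 lower with no filter on low counts, and 107 higher and 274 lower with Tac1 and Tph1 at 0. Leaving out 1 library at a time gave 0 to 229 genes higher and 3 to 496 lower. The extremes were day-1 library 1, without which 0 were higher and 3 lower, and the RXR antagonist library, without which 229 were higher and 496 lower. The interaction had 635 higher and 423 lower on the total-UMI scale. With no floor on level, genes 2-fold higher and lower numbered 2537 and 3389 for the RXR antagonist, 2154 and 3597 for retinoic acid, and 1524 and 1784 for vitamin A-free medium.

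Among single genes, the day-4 vehicle log2 of Ghrl became -0.26 with Tac1 and Tph1 at 0, Gip 0.026 on the total-UMI scale and -0.30 to 0.43 with a day-1 library left out, and Iapp -0.36 without doublets. With 4 libraries, Ghrl became 0.13 on the total-UMI scale and 0.12 with 10 or more UMIs of Chga and Chgb. With 1 library left out it ranged between -0.34 and 0.094, Iapp between -0.064 and 1.82, and Rab3c between -0.037 and 0.49. Of 726 checks of named genes in this comparison 551 kept direction and call, 132 lost the call, 37 gained it and 6 reversed. With 15 to 40 members a day-4 library, hormones seen in under 1 in 10 cells could be missed.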
